A study of Mus musculus with 22 samples.

Results

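The data described were 16 arrays of whole lung from C57BL/6 mice labelled non-transgenic, chosen because their titles name lung, out of 22 arrays in the series. The titles call 8 of these lungs male, numbered here lungs 1 to 8, and 8 female, lungs 9 to 16, and all 16 were treated as 1 group of untreated tissue. Every probe set that is not a control was described, which left 45037 of the 45101 on the array. The other samples were sorted side population cells of A2C12, a single line that was grown from a lung tumour of a double transgenic (c-myc and c-raf) mouse. Of these, 3 were untreated and 3 had 100 µg/ml of an anti-EpCAM antibody for 48 hours. Only the untreated cells were set against lung here. The ages of the mice were not given in the sources used here, and nothing states whether each array came from a separate animal, so p-values measure the spread between these arrays.

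Gas exchange in the lung takes place across flat alveolar type 1 cells, while cuboidal type 2 cells secrete surfactant, the lipid and protein film that keeps alveoli open. The conducting airways are lined by secretory club cells and by ciliated cells that move mucus. A dissected mouse lung also carries capillary endothelium, resident macrophages, blood cells, and pieces of airway, pleura and vessel, including pulmonary veins whose walls hold heart muscle cells in mice. Many lung transcripts also follow the daily clock.

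Each value is a probe set's intensity, the brightness summarised from its probes, and spread is the standard deviation (SD) of log2(intensity + 16) over the lungs. Intensities of different probe sets carry different probe affinities, so a rank orders signals and not amounts of mRNA. Pairs of lung arrays correlated at r = 0.967 to 0.993 over all probe sets, with a median of 0.985. Lungs 4 and 2 had the lowest mean correlation with the others. Lungs 3 and 4 went against their titles: both are titled male, and their Xist and Y-linked transcripts read opposite to that. Lungs 3, 4 and, for part of the genes, 9 also stood apart from the rest in other transcripts, as given below. Whether these 3 arrays hold the non-transgenic lung tissue that their labels name was not tested. Without them, 173 in place of 366 genes reached the SD of 0.5 used below to call a gene variable.

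The arrays also fell into 2 sets at the bright end, which no label names as a batch. On lungs 1 to 4 and 9 to 12, the intensity exceeded by 1 in 1000 probe sets was 8469 to 9362, and on lungs 5 to 8 and 13 to 16 it was 6964 to 8043, with no overlap. Of 10971 genes past the intensity filter, 143 (1.3%) were higher on every array of the first set than on any of the second, and 421 (3.84%) were lower on every one. Rps29, a ribosomal protein gene, read 11001 to 12312 in the first set and 8222 to 9019 in the second. Among the 500 brightest genes, 28 were higher and 3 lower throughout the first set. Among the 100 brightest, 23 were higher and 0 lower, and among the 30 brightest, 12 and 0. The spread of the brightest genes given below includes this difference between the sets. These sets were found after the values were seen, and each holds lungs of both titles. They follow the numbering in the titles: the first holds replicates 1 to 4 of the male and of the female lungs, the second replicates 5 to 8. Within the first set 553 genes were variable and within the second 108.

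Products of secretory epithelium were among the brightest signals of lung. Scgb1a1, the secretoglobin that club cells release into the airway lining fluid, ranked first of all genes and read 11638 at the lowest, 13465 at the median and 14221 at the highest (SD 0.08), staying between ranks 1 and 3 on every array. Tmsb4x, an actin-sequestering peptide, was next and read 8811 at the lowest, 11506 at the median and 12797 at the highest (SD 0.20). Sftpc, the surfactant protein made by type 2 cells alone in adult lung, came after it and read 9934 at the lowest, 10592 at the median and 11940.0 at the highest (SD 0.08). Scgb1a1 and Sftpc thus had a smaller spread between lungs than Tmsb4x.

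Beyond these 3, the 30 brightest genes mixed lung-specific products with transcripts that many cells use. The lung-specific ones included Sftpa1, a collectin of surfactant, which read 7789.6 at the lowest, 9662 at the median and 11694 at the highest (SD 0.18). Cyp2f2, a club cell cytochrome P450 that oxidises naphthalene, read 6126 at the lowest, 9338 at the median and 10209.9 at the highest (SD 0.25). Cbr2, a carbonyl reductase of lung, and Scgb3a2, another secretoglobin, were in the same group. Lyz2, the lysozyme of macrophages and type 2 cells, read 6514 at the lowest, 9533 at the median and 10279.6 at the highest (SD 0.23). Ager, the membrane receptor that marks type 1 cells, read 5921 at the lowest, 9488 at the median and 9882 at the highest (SD 0.26), and its low values were on lungs 5 to 7, at 5921 to 6308, against 7836 to 9882 on the others. A second Ager probe set read 5118 to 6755 with an SD of 0.11 and did not follow the first (r = 0.087), so these low values belong to 1 probe set. The remaining bright genes included ribosomal proteins, Eef1a1 of the translation machinery, Tpt1, and cytoskeletal actins and thymosins. Sparc, Gsn, Uqcrb, Akr1a1, B2m, Fth1 and Cd74 were bright too, as was Epas1, the hypoxia-responsive factor abundant in lung endothelium.

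**Figure D1:**
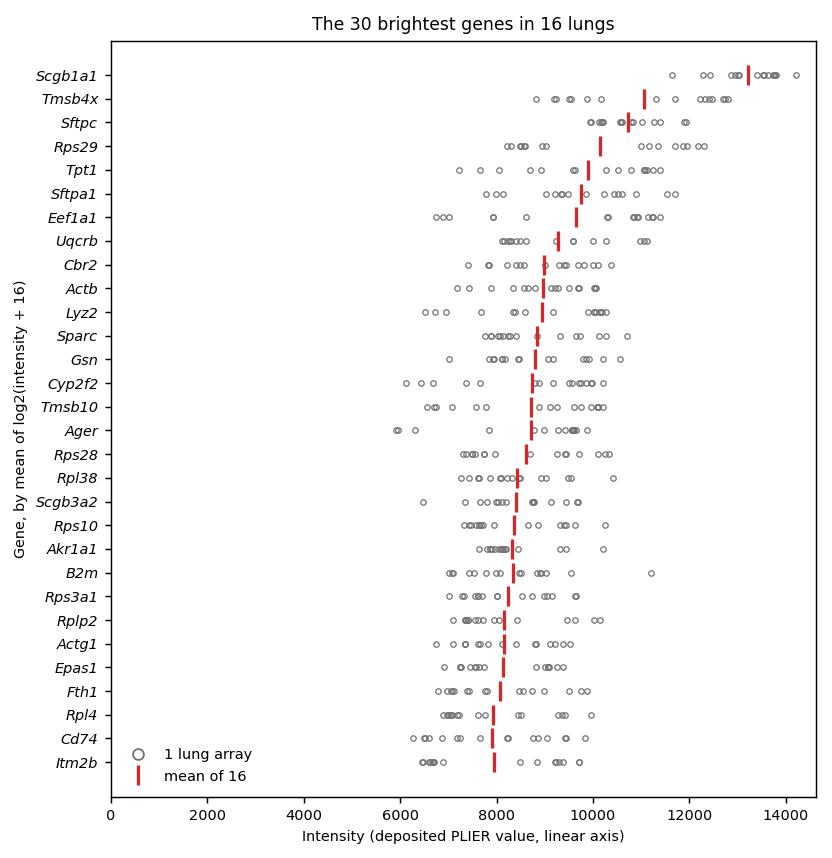
Intensity of the brightest genes of lung on each of the 16 arrays, one row per gene in order of mean log2 intensity and one point per array. Scgb1a1 and Sftpc form tight rows, while Ager and Cyp2f2 spread downwards.

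Signal was spread over many transcripts and not held by a few. The 100 brightest probe sets spanned mean intensities of 7188 to 13226, a 1.84-fold range, and carried a median of 6.33% of the summed intensity of an array (5.28% to 6.92%). Of these 100, 38 were among the 100 brightest on all 16 arrays, and 349 of the 500 brightest stayed among the 500 brightest on all. Probe sets averaging at least 5000 numbered 301, and only 5 averaged at least 10000. The narrow range at the top was not tested for saturation, which these values alone cannot show.

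Markers of alveolar and airway epithelium were abundant. Of 18193 genes with a value, the 500 of highest mean log2 intensity (2.75%) were called abundant, and the median rank of all genes was 9097. For type 2 cells, 15 of 17 measured genes were abundant and the median rank was 84. Among club cell genes 11 of 16 were abundant, with a median rank of 102.5. Type 1 cell genes had 8 of 15 and a median rank of 334. The defining markers of lung epithelium were thus present. All 18 endothelial markers passed the intensity filter of at least 100 on at least 2 lungs, as did 10971 of 18193 genes (60.3%). Ciliated cells, by contrast, had 1 of 23 abundant, and that gene, Tppp3, a microtubule-binding protein, read 2205 at the lowest, 3982 at the median and 4486 at the highest (SD 0.30).

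Genes of matrix were bright, and those of immune cells differed by type. Genes of fibroblasts and matrix had 12 of 19 abundant, and ribosomal protein genes 29 of 43. Macrophage genes had 4 of 17, led by Chil3, a chitinase-like lectin of alveolar macrophages, which read 3709.9 at the lowest, 4901 at the median and 8823 at the highest (SD 0.36). Immunoglobulin and plasma cell genes had 3 of 10, among them Jchain, which links polymeric antibody and read 3462 at the lowest, 5422 at the median and 7494 at the highest (SD 0.29). Neutrophils had 3 of 17, B cells 1 of 12 and T and NK cells 0 of 17, with median ranks of 5822, 6934.5 and 7407. None of 7 liver genes passed the filter, and only 2 of 10 thymocyte, 1 of 14 squamous, 1 of 9 neuroendocrine and 1 of 9 mast cell genes did. In whole tissue, fewer cells of a type and less RNA per cell cannot be told apart.

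Some bright genes hardly moved. Among the 500 brightest, the smallest SD was that of Lamp1, a glycoprotein of the lysosomal membrane, which read 5155 at the lowest, 5440.0 at the median and 5697 at the highest (SD 0.044). Anxa2, a membrane-binding annexin, followed with an SD of 0.055, and Myl12b, a light chain of nonmuscle myosin, with 0.059. The next 7 were Hsd17b11, Gstp1, Hp, Ywhah, Chmp4b, Psap and Timp2, with SDs of 0.062 to 0.066. Hp, haptoglobin, binds free haemoglobin and is known as an acute phase gene, and Timp2 inhibits matrix metalloproteinases.

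Spread was small for most genes. Over the 10971 genes past the filter the median SD was 0.208 and the 95th percentile 0.445. An SD of at least 0.5 was reached by 366 genes (3.34%), and of at least 1 by 35. Without lungs 3, 4 and 9, 1.6% of genes reached 0.5. These shares over all genes apply to each count of variable genes below. Dim genes varied more: the median SD fell from 0.262 in the dimmest of 5 intensity classes to 0.156 in the brightest, and the share called variable from 7.81% to 1.36%. Of the 100 most variable genes, 14 had a second probe set past the filter, and 12 of these 14 (85.7%) correlated above 0.5 with the first over the 16 lungs, against 2497 of 4048 (61.7%) over all such genes. The correlation is a description, since both probe sets read the same RNA.

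**Figure D2:**
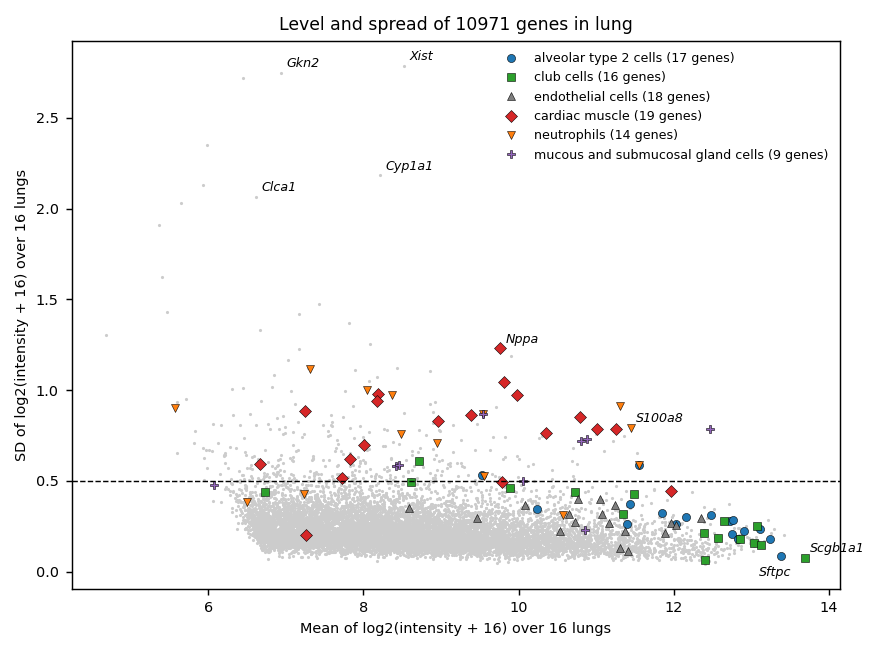
SD of log2(intensity + 16) over the 16 lungs, vertical axis, against mean log2 intensity, horizontal axis, with one grey point per gene past the filter and coloured symbols for the genes of 6 lists. The cloud narrows to the right. Gkn2, Cyp1a1 and Clca1 lie far above the dashed line at 0.5, and Scgb1a1 and Sftpc at the bottom right.

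The most variable genes fell into groups that were high or low on the same lungs. Of the 100 with the largest SD, 86 joined 5 groups by correlation across the lungs and 14 joined none. The groups had 30, 25, 17, 9 and 5 genes. They were formed from the values they describe, so no test is given for them. The group of 17 held neutrophil genes beside the Y-linked Uty, Eif2s3y and Kdm5d. The gene lists used below for cell types and processes overlap with these groups in part.

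**Figure D3:**
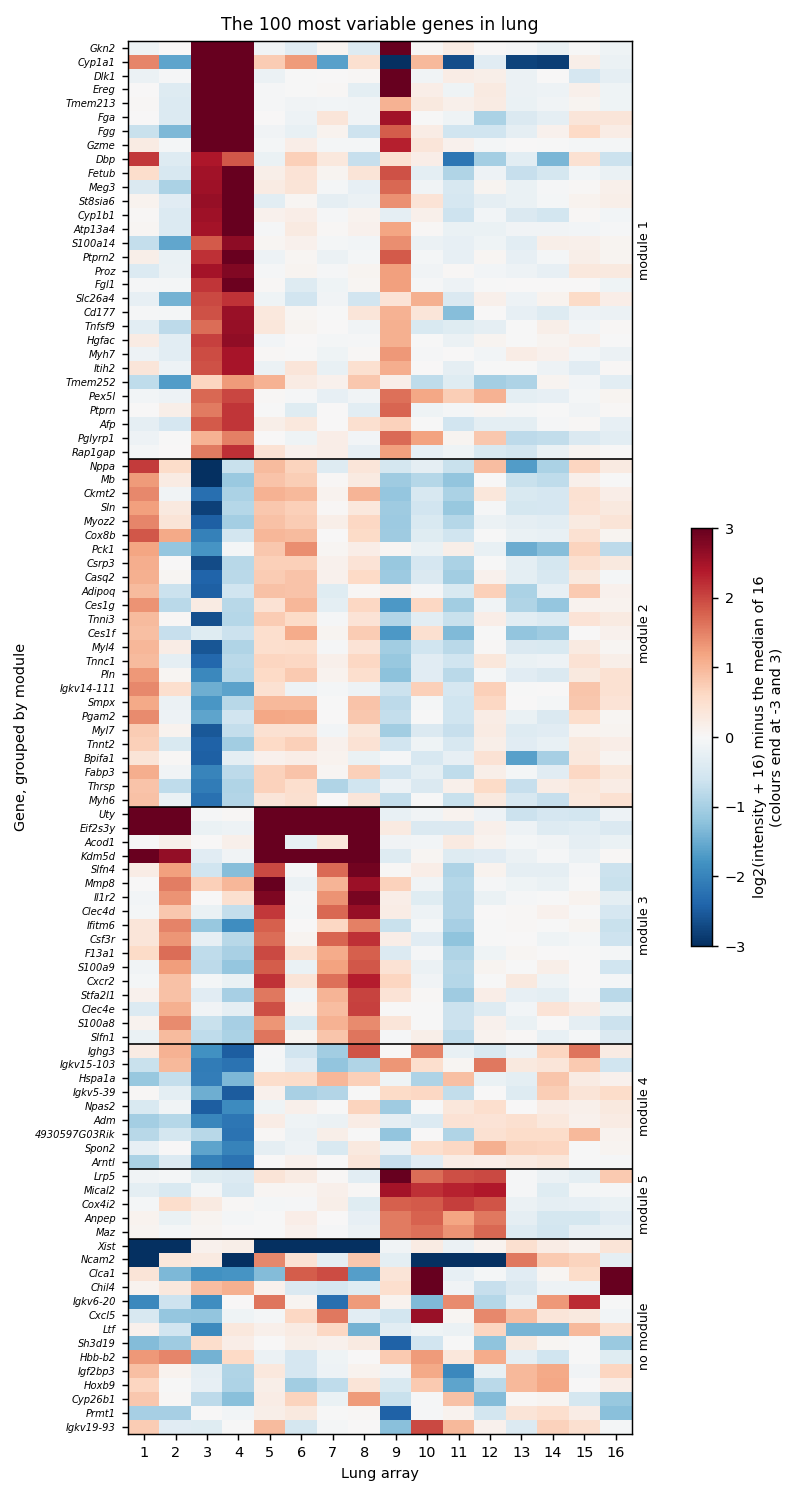
Deviation of the most variable genes from their median over the 16 lungs on the log2 scale, one row per gene and one column per array, with the groups of correlated genes in order. Lungs 3 and 4 stand out as high in the first group, lung 3 as low and lung 1 as high in the second, and lungs 9 to 12 in the smallest.

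The group of 30 genes was high on lungs 3 and 4 and mostly, to a lesser height, on lung 9. Gkn2, a secreted gastrokine, read 5223 on lung 3, 10458 on lung 4 and 3022 on lung 9, and 24.7 to 46.8 on the other 13. Dlk1, a membrane ligand of the Notch family that is expressed from the paternal copy, read 1387 on lung 3, 1769 on lung 4 and 601 on lung 9, and at most 21.9 elsewhere, while its other probe set stayed under 21 on all lungs. Ereg, epiregulin, a ligand of the epidermal growth factor receptor, read 1073 on lung 3, 1580.3 on lung 4 and 256 on lung 9, and at most 17.2 elsewhere. On these 3 genes the 3 lungs did not overlap the rest, and their SDs of 2.75, 2.13 and 2.03 fell to 0.17, 0.19 and 0.19 without the 3 lungs. The untreated sorted cells read 211 to 538 for Ereg and 8.35 to 14.1 for Gkn2, so Ereg was above 100 in the cells and on these 3 lungs, and Gkn2 only on the lungs.

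Fibrinogen and other secreted proteins usually made by liver moved on the same lungs. Fgg, the fibrinogen gamma chain, read 632 on lung 3, 877 on lung 4 and 270.0 on lung 9, and 16.1 to 107 elsewhere. Fga, the alpha chain, read 271 on lung 3, 509 on lung 4 and 160.1 on lung 9, and at most 23.5 elsewhere. These genes were brought together after their values were seen. Of 13 such genes, 4 stayed under 100 on every array, and most of the others passed the filter only through lungs 3, 4 and 9, so no count is drawn from them. Alb and Ttr, which mark liver itself, stayed under 100 on every array. Other secreted liver products, in the correlated group of Fgg, went above 100. The median and highest values were 85.4 and 882 for Fetub, 76.6 and 574 for Hgfac and 36.8 and 278 for Itih2. For Proz they were 24.2 and 258, for Fgl1 21.95 and 276 and for Afp 33.01 and 201. The source of these transcripts was not tested. Meg3, the maternally expressed noncoding RNA of the same imprinted region as Dlk1, read 1060.3 on lung 3, 1557 on lung 4 and 595 on lung 9, and 79.8 to 228 elsewhere.

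Cyp1a1 and Cyp1b1, cytochromes of xenobiotic metabolism, were high on lungs 3 and 4 but not on lung 9. Cyp1a1, the enzyme most strongly induced through the aryl hydrocarbon receptor, read 3904 on lung 3 and 5021 on lung 4, 20.8 on lung 9 and 30.3 to 893 on the others. Cyp1b1, induced by the same receptor, read 1308 on lung 3 and 2003 on lung 4, 174 on lung 9 and at most 244 on the others. Nqo1, a quinone reductase, read 206 on lung 3 and 185 on lung 4 against 21.4 to 140.2 elsewhere. Tiparp, another target of the receptor, had an SD of 0.16. The list as a whole had no single direction. On lungs 3 and 4, 3 of 12 genes had their 2 highest values and 3 of 12 their 2 lowest, against 8.57% and 12.4% of all genes. Of 12 genes of xenobiotic metabolism past the filter, 4 were variable with all lungs and 3 without lungs 3, 4 and 9.

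Of 17 genes of type 2 cells, 14 had their 2 highest values on lungs 3 and 4, as did 940 of all 10971 genes (8.57%). Napsa, an aspartic protease that processes surfactant protein B, read 6297 on lung 3 and 6147 on lung 4 and 3091 to 4336 elsewhere, with 4336 on lung 9. Lcn2, an iron-carrier binding protein of epithelium and neutrophils, read 6979.7 on lung 3 and 5879 on lung 4 and 1894 to 5043 elsewhere. Etv5, a transcription factor that maintains type 2 cells, read 2152 on lung 3 and 1914 on lung 4 and 884 to 1389 elsewhere. Sftpc was not among them, with 10195 on lung 3 and 11895 on lung 4 inside the range of 9934 to 11940.0 on the others. Lcn2 and Egfl6 were the only 2 of 17 type 2 cell genes to be variable, and neither was without lungs 3, 4 and 9.

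Of 16 macrophage genes, 11 had their 2 highest values on lungs 3 and 4, as did 8.57% of all genes. Cd68, a lysosomal glycoprotein of macrophages, read 1269.6 on lung 3 and 1652 on lung 4 against 381 to 818. Atp6v0d2, a subunit of the proton pump, read 1196 on lung 3 and 1213 on lung 4 against 195 to 509.7. On each of lungs 3 and 4, 5 of 16 macrophage genes lay at least 1 log2 unit above their median, as did 1.14% and 1.7% of all genes, while Csf1r, the receptor that sustains macrophages, had an SD of only 0.15. Without lungs 3, 4 and 9, the count of variable macrophage genes was 1 in place of 4. Epcam, the target of the antibody used on the sorted cells, read 1389.8 on lung 3, 1617 on lung 4 and 850.2 on lung 9, and 644 to 902 on the other lungs.

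Of 19 ciliated cell genes, 17 had their 2 lowest values on lungs 3 and 4, as did 1360 of all genes (12.4%). Foxj1, the master transcription factor of motile cilia, read 338 on lung 3 and 327 on lung 4 against 367 to 973. Tekt1, a filament protein of the axoneme, read 109 on lung 3 and 87.8 on lung 4 against 113 to 331. On lung 4, 11 of 19 ciliated genes lay at least 1 log2 unit under their median, and on lung 3, 6 did, against 2.6% and 1.29% of all genes. The median SD of the list was 0.42, against 0.208 over all genes. Lung 2 was low as well: all 19 had their 2 lowest values among lungs 2, 3 and 4, as did 28% of all genes. Rsph1, a radial spoke protein, read 161 on lung 2, of a range of 161 to 573. Of the 19 ciliated genes 4 were variable. The count was 0 without lung 2, 0 without lungs 3 and 4, and 0 with quantile normalization. Of endothelial genes 5 of 18 were under their median by that much on lung 4, and 12 of 18 had their 2 lowest values on lungs 3 and 4, although 0 of 18 were variable over all lungs.

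**Figure D4:**
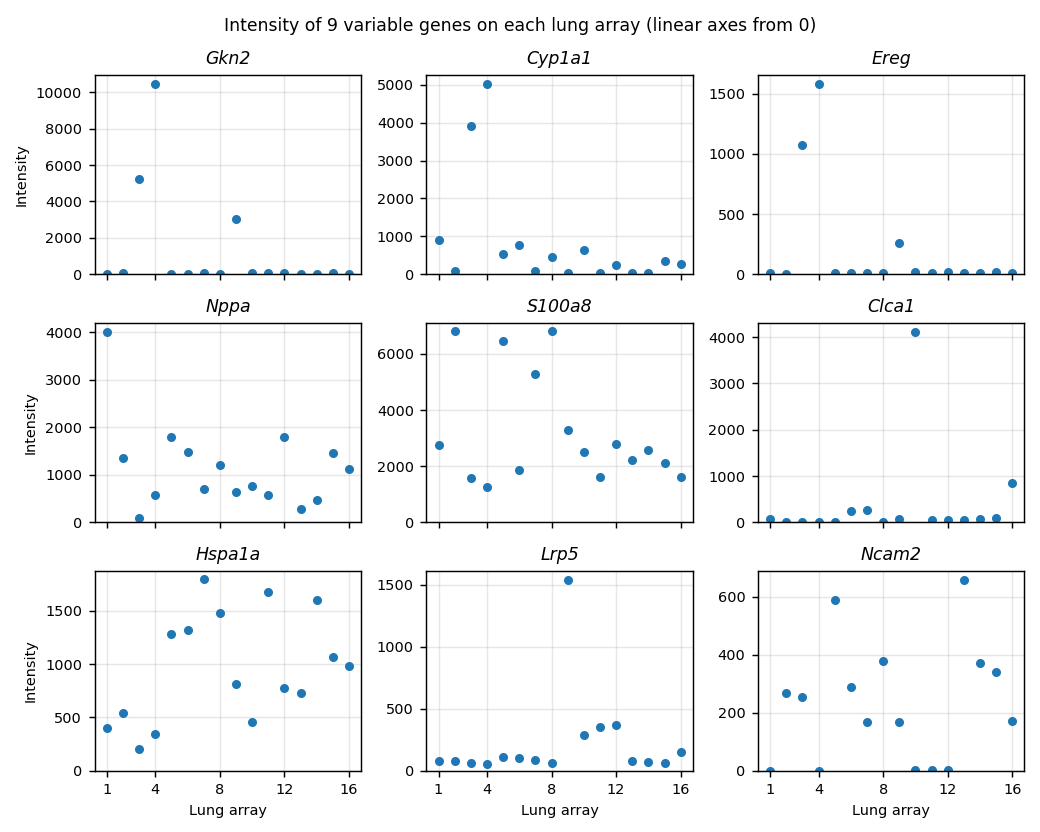
Intensity of selected variable genes on each of the 16 lungs, on linear axes from 0, with one panel for each of 9 genes and arrays in numerical order. The lungs that are high differ from gene to gene: lungs 3, 4 and 9 for Gkn2, lung 1 for Nppa, lungs 2, 5, 7 and 8 for S100a8 and lung 10 for Clca1.

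Heart muscle transcripts differed widely between lungs. Of 19 cardiac genes past the filter, 16 were variable, against 3.34% of all genes, with a median SD of 0.79. Without lungs 3, 4 and 9 the count was 9, against 1.6% of all genes. Nppa, the atrial natriuretic peptide, read 85.5 at the lowest, 944 at the median and 4007 at the highest (SD 1.23), with the highest value on lung 1 and the lowest on lung 3. Myl7, the atrial light chain of myosin, read 476 at the lowest, 2848 at the median and 4839 at the highest (SD 0.79), highest and lowest on the same 2 lungs. Of the 19 genes, 18 had their lowest value on lung 3, as did 779 of all 10971 genes (7.1%). There 17 lay at least 1 log2 unit under their median, as did 1.29% of all genes, and on lung 1, 9 lay that far above, as did 0.346%. Myl7 and Myh6, the alpha heavy chain, varied together: Pearson's r was 0.96 and Spearman's rho 0.89 over the 16 lungs (permutation test, adjusted p 6e-05 and 0.00018). Within the 2 sets of arrays r was 0.97 and 0.89, and 0.88 without lungs 3, 4 and 9. Actc1, cardiac actin and the only abundant gene of the list, read 1917 at the lowest, 4405 at the median and 6378 at the highest (SD 0.44).

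The 7 skeletal muscle genes past the filter had their lowest mean levels on lungs 4, 3 and 9 and their highest on lung 1. Acta1, skeletal actin, read 86.8 at the lowest, 145 at the median and 201 at the highest (SD 0.35), and Myh6 against Acta1 gave r = -0.08 (permutation test, adjusted p 0.82), and r was 0.63 and 0.35 within the 2 sets of arrays. Of 19 skeletal genes measured, 12 stayed under 100 on every array. Fat cell genes were low on lung 3 as well. Adipoq, the adipocyte hormone adiponectin, read 76.2 at the lowest, 486 at the median and 952 at the highest (SD 0.88), with 76.2 on lung 3 and 952 on lung 1. Car3, a carbonic anhydrase abundant in fat, read 659 at the lowest, 2470.4 at the median and 4889 at the highest (SD 0.72). Of 9 fat cell genes past the filter 7 were lowest on lung 3 and 5 were variable, against 7.1% and 3.34% of all genes. Lpl, a lipase that lung makes widely, was not variable, with an SD of 0.21.

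Products of the large airways and glands were low on lung 3 too, with 6 of 9 genes lowest there, as were 779 of all 10971 genes (7.1%). Bpifa1, a secreted surfactant-like protein of the nose, trachea and large airways, read 1259 at the lowest, 6958 at the median and 9391 at the highest (SD 0.78). Reg3g, an antibacterial lectin, read 619 at the lowest, 2109 at the median and 4167 at the highest (SD 0.73), and both varied together: Pearson's r was 0.78 and Spearman's rho 0.65 over the 16 lungs (permutation test, adjusted p 0.00074 and 0.013). Without the 2 arrays farthest from the median of Bpifa1, lungs 3 and 13, r was 0.54, and within the sets it was 0.71, which missed the threshold (exact permutation test, adjusted p 0.06), and 0.94. Of 9 mucous and gland genes past the filter 6 were variable, against 3.34% of all genes. Without lungs 3, 4 and 9 the count was again 6.

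Neutrophil transcripts were high on lungs 8, 5, 7 and 2. S100a8, one chain of calprotectin, the main cytosolic protein of neutrophils, read 6833 on lung 8, 6805 on lung 2, 6453 on lung 5 and 5297 on lung 7, and 1273 to 3299 on the other 12. These 4 lungs did not overlap the rest. Csf3r, the receptor for granulocyte colony-stimulating factor, read 104 at the lowest, 259 at the median and 1234 at the highest (SD 0.97), highest on lungs 8 and 7. Both varied together: Pearson's r was 0.93 and Spearman's rho 0.86 over the 16 lungs (permutation test, adjusted p 6e-05 and 0.00036). In lungs 1 to 4 and 9 to 12 r was 0.91, and the other set fell into separate clusters, so no value is given there.

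Of 14 neutrophil genes past the filter, 11 were variable, against 3.34% of all genes, with a median SD of 0.78. Without lungs 3, 4 and 9, 9 were, against 1.6% of all genes. The lists share members: Ltf is also counted among the gland genes and Lcn2 among the type 2 cell genes. Ltf and Ngp, granule proteins made earlier in neutrophil maturation, were not highest on the same lungs: Ltf, lactoferrin, which glands also make, peaked on lung 15 at 1699.6 and read 309.6 on lung 8, and Ngp peaked there too, at 228. Acod1, which makes itaconate in activated macrophages and neutrophils, read 887 on lung 5 and 1580.5 on lung 8 and at most 16.4 elsewhere. Platelet transcripts followed S100a8: for S100a8 and Pf4, platelet factor 4, Pearson's r was 0.80 and Spearman's rho 0.76 over the 16 lungs (permutation test, adjusted p 0.00054 and 0.0025). Pf4 and Ppbp, both platelet chemokines, gave r = 0.88 (permutation test, adjusted p 9e-05), although 0 of 9 platelet genes were variable. Within lungs 1 to 4 and 9 to 12 these pairs gave r of 0.81 and 0.88, and the other set fell into separate clusters.

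Genes of the type 2 immune response were high on lung 10 and, in part, on lung 4. Clca1, a secreted product of goblet cells, read 4108 on lung 10 and 853 on lung 16, against 5.42 to 277 on the other 14, while its other probe set stayed under 27 on all lungs. Chil4, a chitinase-like protein of airway epithelium whose sequence is close to that of Chil3, read 2102 and 1050.0 on the same lungs and 47.6 to 196 on the others. Retnla, a resistin-like molecule of alternatively activated macrophages, read 7238 on lung 10, 5640.3 on lung 4 and 1002 to 5093 on the rest. Of 7 genes of this response past the filter, 6 were variable, 5 without lungs 3, 4 and 9, and 5 of 7 lay at least 1 log2 unit above their median on lung 10, as did 0.31% of all genes. On lung 4, 4 of 7 did and on lung 3, 2 did, against 1.7% and 1.14% of all genes. On lung 16, 2 did, as did 5 of all 10971 genes. The chemokine Ccl17, part of the same response, read 359 at the lowest, 496 at the median and 1019.5 at the highest (SD 0.39), with its highest value on lung 4.

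Clock genes varied in opposite directions. Dbp, a transcription factor driven directly by the clock and peaking towards evening, had the widest range of them, with 39.7 at the lowest, 237 at the median and 1341 at the highest (SD 1.25). Its highest values were on lungs 3 and 1 and its lowest on lungs 11 and 14. Arntl, the core activator BMAL1, whose transcript runs opposite to Dbp over the day, read 44.8 at the lowest, 267 at the median and 349.9 at the highest (SD 0.79), lowest on lungs 4 and 3. For this pair, Pearson's r was -0.81 and Spearman's rho -0.74 over the 16 lungs (permutation test, adjusted p 0.00054 and 0.0034). Within the sets r was -0.88 and -0.57, the latter short of the threshold (exact permutation test, adjusted p 0.3). Without lungs 3, 4 and 9 r was -0.71 (permutation test, adjusted p 0.02), but rho was -0.58 and missed the threshold (permutation test, adjusted p 0.073). With lungs 1 and 11 left out as well, r was -0.40.

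Nr1d2, a repressor of Arntl and its partner genes, and Npas2, an activator that pairs with BMAL1, gave r = -0.75 (permutation test, adjusted p 0.00054). Within the sets r was -0.85 and -0.28, and without lungs 3, 4 and 9 it was -0.54. The last 2 values missed the threshold (permutation test, exact within the set, adjusted p 0.57 and 0.078). Of 11 evening genes 3 were variable, Dbp, Nr1d1 and Nr1d2, and of 5 morning genes 3 were, Npas2, Arntl and Nfil3, counts that became 2 and 1 without lungs 3, 4 and 9. Usp2 and Ciart, which are also clock outputs, had SDs of 0.17 and 0.22. The hours at which the lungs were taken were not given in the sources used here.

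Promoters of the clock outputs were searched for the sites of the clock's own factors. Windows ran from 250 bases before to 50 after each start in RefSeq's mouse build GRCm38.p6, and both strands were read. Here and for the heat shock element below, a gene was counted if any of its windows held a match. The shares set beside these counts are of single windows, so the 2 are not the same measure. The E-box CACGTG, bound by BMAL1 and its partners, was in the window of 4 of 10 clock output genes, Per1, Tef, Ciart and Bhlhe41, against 7.15% of 32851 windows. The windows of Dbp, Nr1d1 and Nr1d2, the 3 variable genes, held none. The D-box TTATGTAA, bound by Dbp, Tef and Hlf, was in 1 of 5, against 0.938%, and that gene was Per3 with 2 matches (chr4:151044616-151044915, minus strand). Per3, a period gene, read 43.2 at the lowest, 76.4 at the median and 144 at the highest (SD 0.41). Its window is printed 5′ to 3′ with the D-box letters in capitals.
Per3: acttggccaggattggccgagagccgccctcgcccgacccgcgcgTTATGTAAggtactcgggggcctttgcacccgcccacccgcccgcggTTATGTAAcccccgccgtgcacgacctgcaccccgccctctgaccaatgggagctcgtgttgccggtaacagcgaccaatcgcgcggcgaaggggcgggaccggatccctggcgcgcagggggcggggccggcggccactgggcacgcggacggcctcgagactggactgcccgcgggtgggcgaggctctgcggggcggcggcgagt
A match of letters is a description and does not show binding.

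All 14 heat shock genes had their 2 lowest values among lungs 2, 3 and 4, as did 3067 of all 10971 genes (28%). Hsph1, a chaperone of the HSP110 family, read 576 at the lowest, 2245 at the median and 3912 at the highest (SD 0.76), with 3171 to 3912 on lungs 5 to 8 and 576 to 2767 on the others. Hspa1a, the inducible HSP70, read 199 at the lowest, 896 at the median and 1795 at the highest (SD 0.91), lowest on lungs 3 and 4. Its neighbour Hspa1b is nearly identical in sequence, so the 2 signals may not be separate. Chordc1, a cochaperone of HSP90, was less variable at 673 at the lowest, 1073 at the median and 1479 at the highest (SD 0.36). For Hspa1a and Dnajb1, its cochaperone of the HSP40 family, Pearson's r was 0.85 and Spearman's rho 0.80 over the 16 lungs (permutation test, adjusted p 0.00014 and 0.0015). Within the sets r was 0.85 and 0.23, the latter short of the threshold (exact permutation test, adjusted p 0.61). Of 14 heat shock genes 5 were abundant and 3 variable, and 1 was variable without lungs 3, 4 and 9.

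The heat shock element, searched as GAANNTTCNNGAA on both strands, is the site of heat shock factor 1. It was in the window of 4 of 12 heat shock genes with a window, Hsph1, Hspd1, Hspe1 and Chordc1, against 0.603% of all windows. The windows of the 2 genes described above are printed with the matched letters in capitals: Hsph1 (chr5:149636287-149636586, minus strand) and Chordc1 (chr9:18292017-18292316, plus strand), where 3 matches overlap. Hsph1 has 2 annotated starts and 1 window is shown.
Hsph1: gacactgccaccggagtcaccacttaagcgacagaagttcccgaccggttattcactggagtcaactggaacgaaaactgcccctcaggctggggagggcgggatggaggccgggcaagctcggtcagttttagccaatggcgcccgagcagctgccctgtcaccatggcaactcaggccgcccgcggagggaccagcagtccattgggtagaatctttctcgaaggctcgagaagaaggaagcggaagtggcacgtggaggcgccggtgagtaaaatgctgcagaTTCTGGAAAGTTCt
Chordc1: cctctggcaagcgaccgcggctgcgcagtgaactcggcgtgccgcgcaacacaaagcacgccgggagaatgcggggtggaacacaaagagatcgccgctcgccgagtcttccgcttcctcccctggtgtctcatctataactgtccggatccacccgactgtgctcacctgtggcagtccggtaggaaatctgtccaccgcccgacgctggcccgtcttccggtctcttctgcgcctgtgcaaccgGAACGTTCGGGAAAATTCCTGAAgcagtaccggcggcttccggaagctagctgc
Hspd1 and Hspe1 are transcribed from a shared promoter, so their matches are not separate. No match in the window of Hspa1a or another gene says only that these letters are not in that stretch.

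Of 14 glucocorticoid-responsive genes, 7 had their lowest value on lung 13, as did 195 of all 10971 genes (1.78%). Zbtb16, a transcription factor strongly induced by the hormone, read 397 at the lowest, 1248 at the median and 2801 at the highest (SD 0.75), lowest on lung 13. Fkbp5, a cochaperone of the glucocorticoid receptor, read 139 at the lowest, 351 at the median and 807 at the highest (SD 0.70), with 139 on lung 13 and 807 on lung 5. Mt2, a metallothionein, read 589.9 at the lowest, 1186 at the median and 4078 at the highest (SD 0.74), highest on lung 5. Of 14 genes 5 were variable, with or without lungs 3, 4 and 9. Fkbp5 and Tsc22d3, the leucine zipper protein GILZ, gave r = 0.53 (permutation test, adjusted p 0.051), which missed the threshold. Without lung 4 the pair passed at r = 0.65 (permutation test, adjusted p 0.012), as it did without lungs 3, 4 and 9 (r = 0.62, permutation test, adjusted p 0.04).

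Cell division genes were dim: of 19 measured, 13 passed the filter and 5 stayed under 100 on every array. Of the 13, 7 had their 2 highest values on lungs 3 and 4, as did 8.57% of all genes. Genes this dim can pass the filter only through the lungs where they are high. The counts given here for this list therefore depend on the filter, and no result is drawn from them. Mki67, a marker of cycling cells, read 46.4 at the lowest, 111 at the median and 185 at the highest (SD 0.47), and Top2a, the topoisomerase that untangles replicated DNA, 62.1 at the lowest, 116 at the median and 239 at the highest (SD 0.47). For this pair, Pearson's r was 0.94 and Spearman's rho 0.92 over the 16 lungs (permutation test, adjusted p 6e-05 and 0.00018), and within the sets r was 0.98 and 0.93. Cdk1, the mitotic kinase, reached 339.5 on lung 4 against 56.4 to 201 elsewhere. On lung 4, 5 of 13 genes of division lay at least 1 log2 unit above their median, as did 1.7% of all genes. Over all lungs 3 of these 13 were variable, against 3.34% of all genes, and 0 were without lungs 3, 4 and 9.

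Of 11 B cell genes, 4 had their 2 lowest values on lungs 3 and 4, as did 12.4% of all genes. On lung 4, 4 lay at least 1 log2 unit under their median, and on lung 3, 0 did, against 2.6% and 1.29% of all genes. Cd79a, a signalling chain of the B cell receptor, read 224 at the lowest, 517 at the median and 1007 at the highest (SD 0.55), and Ms4a1, the surface protein CD20, 159 at the lowest, 399 at the median and 656 at the highest (SD 0.55). For this pair, Pearson's r was 0.79 and Spearman's rho 0.77 over the 16 lungs (permutation test, adjusted p 0.00054 and 0.0023), with r of 0.88 and 0.89 within the sets. Cd79a also correlated with Cd3e of T cells, at r = 0.66 (permutation test, adjusted p 0.0098), and 0.80 in lungs 5 to 8 and 13 to 16, the other set having separate clusters. Without lungs 9 to 12 r was 0.60 and missed the threshold (permutation test, adjusted p 0.057). Both B cell genes fell short of an SD of 0.5 without lungs 3, 4 and 9. Ighg3, a constant region of antibody heavy chains, read 152 at the lowest, 921 at the median and 3473 at the highest (SD 1.19), lowest on lungs 4 and 3, while Igha, that of mucosal antibody, read 3616 at the lowest, 5505 at the median and 7568 at the highest (SD 0.27). Probe sets of immunoglobulin genes can read related family members.

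A group of 5 genes was high on lungs 9 to 12, with no overlap with the other lungs. Mical2, an enzyme that oxidises actin, read 1093 to 1356 on these 4 lungs and 159 to 254 on the other 12. Cox4i2, a lung isoform of a cytochrome c oxidase subunit, read 367 to 449.8 against 69.6 to 141. Anpep, an aminopeptidase of cell surfaces, read 565 to 851 against 160.4 to 277, and Lrp5 and Maz were likewise apart. On the same 4 lungs the 3′ control probe set for 18S ribosomal RNA read 39.7 to 78.2, against 140.2 to 568 on the others, and the part of this in the result was not tested. Without these lungs the SD of Mical2 was 0.22 in place of 1.12.

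Some single genes followed no group. Ncam2, a neural adhesion molecule, read at most 0.76 on lungs 1, 4, 10, 11 and 12, and 168 to 657 on the other 11. Its 2 other probe sets stayed at or under 8.7 on all lungs. Cxcl5, a chemokine that draws neutrophils, read 427 on lung 10 and at most 206 elsewhere. Rabl3, a small GTPase, belonged to the genes that split the 2 sets of arrays, at 232 to 359 in the first and 139 to 170 in the second.

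Several lists held no variable gene over the 16 lungs, which at 3.34% of all genes is near the share to be found in lists of this size. These were endothelium (0 of 18), fibroblasts and matrix (0 of 19), alveolar type 1 cells (0 of 15), T and NK cells (0 of 13), the interferon response (0 of 20), MHC class I (0 of 9) and class II (0 of 7), mesothelium (0 of 9) and ribosomal proteins (0 of 37). Their median SDs lay on both sides of the 0.208 of all genes, from 0.14 for ribosomal proteins to 0.28 for endothelium, 0.35 for T and NK cells and 0.43 for mesothelium. Nnt, the transhydrogenase gene that is partly deleted in one C57BL/6 substrain, read 942 at the lowest, 1061 at the median and 1201 at the highest (SD 0.10), with no array apart from the rest. Whether its probe set lies in the deleted part was not tested. Immediate early genes, which respond within minutes of handling, had 1 of 23 variable, Atf3, which read 90.9 at the lowest, 217 at the median and 401 at the highest (SD 0.56).

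In all, 24 pairs of genes were set against each other across the lungs, 20 had both genes past the filter, and 18 of these could be adjusted together. The pairs Foxj1 with Tekt1 and Scgb1a1 with Foxj1 fell into separate clusters and have no pooled value. By Pearson's r, 12 of 18 passed at an adjusted p of 0.05 (two-sided permutation test). Of these 12, Chil3 with Marco had r = 0.60 and an adjusted p of 0.089 by rank, and rested on lungs 3 and 4, without which r was 0.33; within the sets it was 0.80 and 0.53. Scgb1a1 and Sftpc, the leading products of club and type 2 cells, gave r = 0.13 (permutation test, adjusted p 0.76). Fos and Egr1, both immediate early genes, gave r = 0.34 (permutation test, adjusted p 0.26). Without lung 4 this pair passed at r = 0.64 (permutation test, adjusted p 0.015), and without lungs 3, 4 and 9 at r = 0.82 (permutation test, adjusted p 0.0018).

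**Figure D5:**
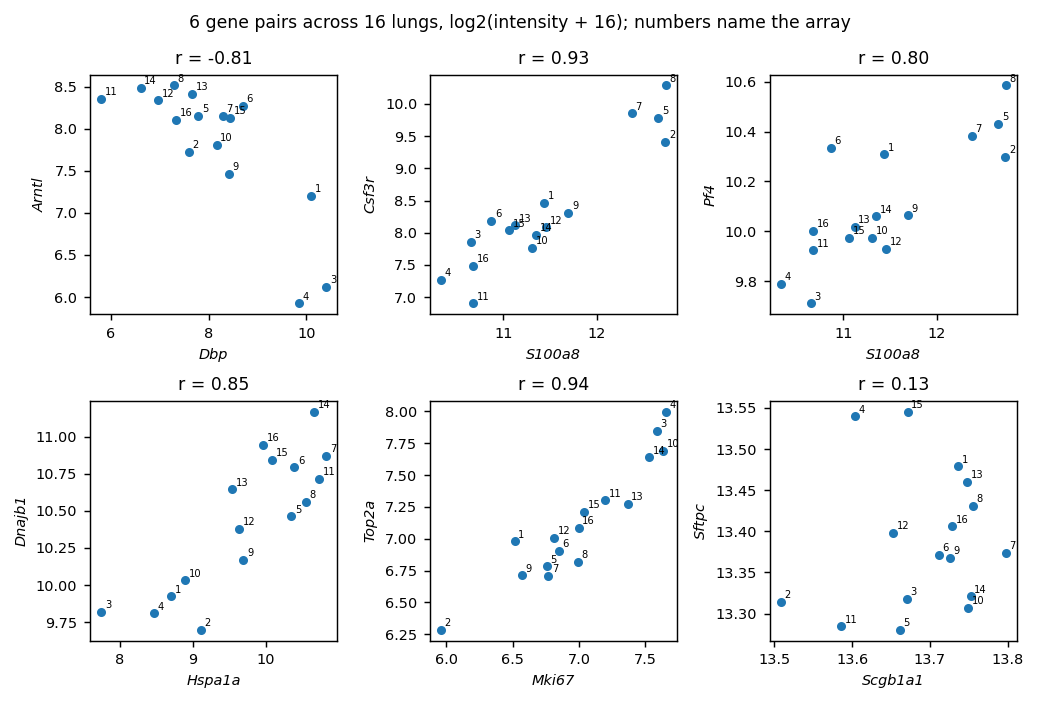
Pairs of genes across the 16 lungs on the log2(intensity + 16) scale, one panel for each of 6 pairs and one numbered point per array. Dbp falls as Arntl rises (r = -0.81), S100a8 and Csf3r rise together (r = 0.93), and Scgb1a1 and Sftpc show no slope (r = 0.13).

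Set against the 3 untreated arrays of sorted A2C12 cells, lung was higher in its epithelial and vessel genes and lower in genes of division. Of 32533 probe sets tested with limma, 6386 (19.6%) were higher in lung and 6553 (20.1%) lower, at an adjusted p under 0.05 and at least 2-fold. That is 49.4% higher among the calls, which became 59.7% without normalization (7480 and 5054) and 44.8% with median centring (5935 and 7313). The median difference, lung minus cells, over all probe sets was -0.15 log2 units, 0.04 without normalization and -0.23 with median centring. All 17 type 2 cell genes, all 18 endothelial genes and 13 of 16 club cell genes tested were higher in lung, and 18 of 18 cell division genes were lower. The groups differ in tissue against culture, in sorting and in transformation at once, and these cannot be told apart.

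Scgb1a1 read 0.0099 to 15.7 in the cells and 11638 to 14221 in lung (limma, adjusted p 7e-26). Sftpc read 9.46 to 22.1 in the cells and 9934 to 11940.0 in lung, and Cdh5, the cadherin of endothelial junctions, 0.12 to 5.99 and 2583 to 4616. Ccl2, a monocyte chemokine, went the other way, with 2079 to 5849.6 in the cells and 4.93 to 35.6 in lung (limma, adjusted p 9.5e-18). For these genes 1 group lay near the bottom of the intensity scale, so the log2 difference is set by the offset of 16 and is not given as a fold. Mki67, measured in both, read 973 to 1586 in the cells, and lung minus cells was -3.28 ± 0.27 log2 units (limma, SE, adjusted p 5.1e-11). Gkn2, high only on lungs 3, 4 and 9, missed the threshold (limma, adjusted p 0.16). Hspa1b differed by -0.10 ± 0.33 (limma, adjusted p 0.79). Its near-identical neighbour Hspa1a was higher in lung, by 2.12 ± 0.45 log2 units (limma, SE, adjusted p 0.00015).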

How the data were processed

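RNA of 16 lungs and 6 samples of sorted cells was read on Affymetrix mouse 430 2.0 arrays. The authors deposited linear intensity values made with PLIER, per the submitters' processing notes; its version and scaling are not given in the sources used here. Values were taken as log2(intensity + 16). Control probe sets (64) were set aside. Of the others, 34945 had 1 gene symbol, 932 several and 9160 were not listed in the annotation given; only the first were named. Each of 18193 genes was represented by its probe set of highest mean log2 intensity, with those whose names end in _x_at used only where no other was present. This choice can pass over a brighter probe set and can hide others. Genes needed an intensity of at least 100 on at least 2 lungs for spread to be described, and were called variable at an SD of at least 0.5. Named genes were the 30 of highest mean, the 30 of largest SD, the 10 of smallest SD among the 500 brightest, up to 4 of highest mean and 4 of largest SD per list described, the paired genes and the members of the correlated groups; Bhlhe41, Ccl2, Chordc1, Ciart, Hlf, Hspd1, Hspe1, Napsa, Ngp, Per3, Rabl3, Tiparp and Usp2 were picked after their values were seen. Members, lists and which arrays are described were chosen with earlier results of these data known, and 4 lists were added after the values were seen.

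Gene pairs were tested with two-sided permutation tests (100000 draws, all orders for 8 arrays), with Benjamini-Hochberg adjustment over the pairs; p-values for rank correlations were adjusted likewise. Lung was compared with untreated cells by limma 3.58.1 (R 4.3.3) after quantile normalization, on probe sets above the 40th percentile on at least 3 arrays, with all 3 groups in the fit. Python 3.11.15, numpy 2.4.6, pandas 2.3.3, SciPy 1.17.1 and matplotlib 3.10.9 were used, and the scripts were tested on simulated data. Alternatives were other offsets, filters, normalizations, spread measures and probe set choices, and leaving out arrays. The number of arrays limits the precision; depth does not apply. Promoter windows were from RefSeq.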

Additional observations from a re-analysis of the deposited data

How the results depend on the processing

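The 500 brightest genes shared 298 when each gene was the mean of its probe sets, and 475 to 497 under the other alternatives. The 366 variable genes became 189 with an offset of 64, 153 when 100 was required on all 16 lungs, 220 by interquartile range, 198 without lungs 3 and 4 and 637 over all probe sets. Under alternatives chosen after seeing the data they became 173 without lungs 3, 4 and 9, 553 within lungs 1 to 4 and 9 to 12, and 108 within lungs 5 to 8 and 13 to 16. Leaving out each lung in turn gave 275 to 394, lowest without lung 4 and highest without lung 7. The 12 passing pairs became 5 within lungs 5 to 8 and 13 to 16, where 8 arrays were tested, and 10 to 14 otherwise. Acta1 with Ckm turned from -0.10 to 0.20 without lungs 3, 4 and 9 and to 0.57 and 0.46 within the sets. Myh6 with Acta1 turned to 0.22, 0.63 and 0.35 in the same order. Fos with Egr1 gave -0.092 within the first set, Scgb1a1 with Sftpc -0.057 within the second, and Adipoq with Acta1 -0.056 without lungs 9 to 12. None of these pairs passed over the 16 lungs, but Fos with Egr1 did without lung 4 (0.64) and without lungs 3, 4 and 9 (0.82), and Fkbp5 with Tsc22d3 did in both (0.65 and 0.62) and with an offset of 1 (0.53). In the comparison with untreated cells an offset of 64 gave 4228 higher and 3760 lower, and leaving out each untreated array gave 6314 to 6491 higher and 5079 to 5233 lower, with fewer probe sets past the filter. Actb, 0.35 higher in lung, read -0.11 with median centring. Where no construction of the alternative is named, the cause was not tested. For the 30 most variable genes, 831 of 870 SDs under alternatives stayed at 0.5 or above and 39 did not. No paired analysis was possible because the lungs form 1 group and the replicate numbers of lungs and cells do not name shared animals.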
